A study of Rattus norvegicus with 12 samples.

Results

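Foxp3 and 9 other genes that regulatory T cells are known for were followed in RNA of the pubocaudalis, a muscle of the rat pelvic floor, after simulated birth injury (SBI). The genes were taken by symbol from the deposited count table: Foxp3, Ctla4, Ikzf2, Ikzf4, Tnfrsf18, Tnfrsf4, Areg, Entpd1, Lrrc32 and Icos. All 10 were among the 30206 genes of the table, and 8 of the 10 passed the filter on low counts, as did 14599 genes in all. Ctla4 and Areg did not pass. The animals were female Sprague-Dawley rats, 3 months old and pregnant, and every group had the same injury, a distention of the vagina by balloon in late pregnancy. After delivery the pups were removed (SBI, non-lactating) or left with the dam (SBI + Lac, lactating), and muscles were taken 1 or 3 weeks after the injury. The 4 groups carry the study's names, 1wk SBI and 1wk SBI + Lac for the earlier time and 3wk SBI and 3wk SBI + Lac for the later one. Each had 3 libraries, with 2 rats pooled in a library and 6 rats in a group. Whole muscle was used, no uninjured muscle is compared here, and no cells were sorted.

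FOXP3 is the transcription factor that defines regulatory T cells, which restrain other immune cells and which, in injured skeletal muscle, are known to gather and to favour repair. It is switched on in T cells by signals from the antigen receptor, from interleukin 2 and from TGF-beta. The other genes encode transcription factors that work with it (Ikzf2 for Helios, Ikzf4 for Eos), receptors that carry or block costimulation (Ctla4, Icos, Tnfrsf18 for GITR, Tnfrsf4 for OX40) and effector proteins that act on other cells (Entpd1 for the ATP-splitting enzyme CD39, Lrrc32 for GARP, which holds latent TGF-beta, and Areg for the growth factor amphiregulin). Several are also made by cells other than T cells, among them endothelium for Entpd1 and Lrrc32.

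Total counts per library ran from 10082734 to 75634391, and 3 counts, taken as the upper limit that a count of 0 allows, came to between 0.036 and 0.330 normalized CPM, which is counts scaled to library size. Such limits cover counting error only. Levels are given as CPM scaled by the TMM normalization factors, as mean ± SD of 3 libraries. The 9 skeletal muscle genes followed as a check of the tissue summed to between 90683 and 213534 CPM in every library. T cell transcripts were scarce, and the library 3wk SBI replicate 3, the most deeply sequenced, stood apart from the other libraries of its group in them. Fewer cells of a type and less RNA per cell cannot be told apart in bulk RNA. The 1-week columns hold whole counts and the 3-week columns estimated counts with decimals, so comparisons between time points mix time with counting, while those within a time point do not.

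The bases before the start of Foxp3 and of 2 other members, Entpd1 and Icos, are shown so that the sequences can be read side by side. Entpd1 had the lowest correlation with Foxp3, and Icos, also negative, did not pass that test. They are the 250 bases upstream of the annotated start in RefSeq (build GRCr8), 5′ to 3′ on the strand of the gene: chrX:17595701-17595950 on the minus strand for Foxp3, chr1:249422614-249422863 on the plus strand for Entpd1 and chr9:69877549-69877798 on the plus strand for Icos. Capitals mark a match on either strand to GGAAA, the core letters that NFAT factors bind, or to TGTGGT, the core of RUNX sites.
Foxp3 upstream: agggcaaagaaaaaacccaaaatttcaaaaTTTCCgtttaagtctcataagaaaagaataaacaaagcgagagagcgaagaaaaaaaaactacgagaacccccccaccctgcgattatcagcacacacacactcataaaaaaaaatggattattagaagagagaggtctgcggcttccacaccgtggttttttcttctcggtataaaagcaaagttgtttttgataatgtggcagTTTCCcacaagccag
Entpd1 upstream: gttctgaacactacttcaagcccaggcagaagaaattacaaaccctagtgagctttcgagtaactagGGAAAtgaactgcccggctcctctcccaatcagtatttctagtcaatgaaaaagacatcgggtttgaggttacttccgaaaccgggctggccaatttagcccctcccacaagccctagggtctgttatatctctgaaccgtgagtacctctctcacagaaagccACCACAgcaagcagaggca
Icos upstream: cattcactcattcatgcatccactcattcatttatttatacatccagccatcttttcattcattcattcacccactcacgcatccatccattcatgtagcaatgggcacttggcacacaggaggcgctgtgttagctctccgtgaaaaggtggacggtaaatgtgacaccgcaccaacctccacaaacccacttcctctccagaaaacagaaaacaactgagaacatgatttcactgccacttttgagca
The Foxp3 window held GGAAA at 2 places, 1 of them 15 bases before the start, Entpd1 held 1 GGAAA and 1 TGTGGT, and Icos held neither. GGAAA was found in 56.9% and TGTGGT in 14.5% of the 33469 upstream windows of the table. TTCNNNGAA, the form STAT5 binds, and GTAAACA, the forkhead form, were in none of the 7 windows found for the 10 genes, and in 7.67% and 3.21% of all windows. These matches describe letters only, and no file used here measures binding at them.

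Foxp3 (ENSRNOG00000011702) was detected in all 12 libraries, with 16 to 244 counts. In 1wk SBI it was at 0.609, 0.894 and 1.62 CPM. In 1wk SBI + Lac it was at 2.49, 2.20 and 1.39 CPM. At 3 weeks it was at 1.72, 2.41 and 1.57 CPM without lactation and at 4.40, 3.97 and 4.29 CPM with lactation. The 3 libraries of 3wk SBI + Lac lay above all 9 others and close to each other. The mean was highest in 3wk SBI + Lac (4.22 ± 0.222), followed by 1wk SBI + Lac (2.03 ± 0.574), then 3wk SBI (1.90 ± 0.451), and lowest in 1wk SBI (1.04 ± 0.519). The middle groups covered nearly the same range, and the highest library of 1wk SBI lay above the lowest of both.

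**Figure D1:**
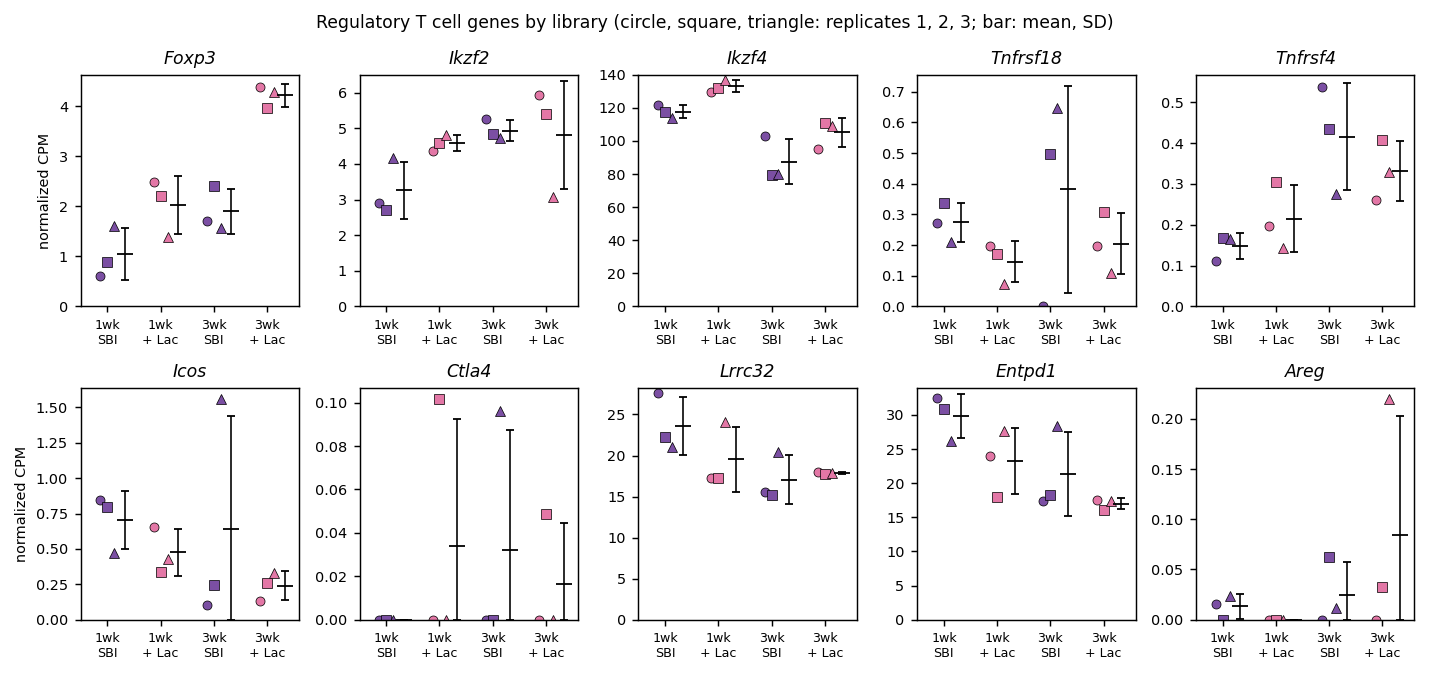
Normalized CPM (vertical axis, linear, a scale of its own for each gene) of the 10 genes in the 4 groups. Circle, square and triangle are replicates 1, 2 and 3, purple is SBI, pink is SBI + Lac, and the bar is the mean with its SD over 3 libraries, drawn no lower than 0. Foxp3 lay between 3.97 and 4.40 CPM in 3wk SBI + Lac and at most at 2.49 CPM elsewhere, and none of the other 9 genes shows that order of group means.

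At 1 week the log2 fold change of Foxp3, lactating over non-lactating, was 0.97 (SE 0.34), which did not pass the test (edgeR quasi-likelihood test, Benjamini-Hochberg adjusted p = 0.145, unadjusted p = 0.0128), and the groups overlapped. The overlap was between 1wk SBI replicate 3 (1.62 CPM) and 1wk SBI + Lac replicate 3 (1.39 CPM). Without 1wk SBI replicate 3 the log2 fold change was 1.42 and the edgeR adjusted p was 0.0268. At 3 weeks the log2 fold change was 1.16 (SE 0.35) and the groups did not overlap, but the adjusted p of edgeR was 0.0859 (unadjusted p = 0.00474), short of 0.05. DESeq2, the tool the study used, gave 1.16 with an adjusted p of 0.0271 on all libraries and of 0.0181 on the 6 compared. The Foxp3 call at 3 weeks thus hung on the tool. The difference between the effects at 3 weeks and at 1 week was 0.19 (SE 0.49, edgeR adjusted p = 0.999), so no difference between the time points in the effect of lactation was detectable, and its sign turned to -0.26 without 1wk SBI replicate 3 and to -0.030 without 1wk SBI + Lac replicate 3.

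Between 1 and 3 weeks Foxp3 differed by a log2 fold change of 1.06 (SE 0.34) in lactating rats, without overlap, and by 0.87 (SE 0.36) in non-lactating rats, with overlap. Neither passed (edgeR adjusted p = 0.116 and 0.174). In lactating rats the adjusted p was 0.0266 with edgeR fitted to the 6 libraries compared, and 0.0436 and 0.00572 with DESeq2 on all and on the compared libraries. In non-lactating rats the edgeR adjusted p was 0.0282, with a log2 fold change of 1.32, once 1wk SBI replicate 3 was left out. The log2 fold change was 0.59 without 1wk SBI replicate 1, and over each library left out the edgeR adjusted p ran up to 0.523.

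The T cell receptor complex genes Cd3e, Cd3d, Cd3g and Cd247, whose products carry the signal of the receptor in every T cell, summed to 0.705 to 2.53 CPM in 1wk SBI and 0.311 to 0.787 CPM in 1wk SBI + Lac. At 3 weeks the sums were 1.07 to 4.60 CPM without and 0.660 to 2.72 CPM with lactation. The fitted log2 fold changes of the 4 genes with lactation lay below 0 at both times, and 0 of 4 passed the test (for Cd3e -1.78 at 1 week, edgeR adjusted p = 0.384, and -0.80 at 3 weeks, edgeR adjusted p = 0.664). The library 3wk SBI + Lac replicate 3 held 39 counts of Foxp3 with 0 counts of Cd3e, Cd3d and Cd8a and 1 of Cd3g. Cd247 was at 0.550 CPM there, the highest of its group, and 15 of 20 T cell genes had counts. At the depth of that library a count of 0 allows up to 0.330 CPM. The library 3wk SBI replicate 3 held 131 counts of Foxp3 with 145 of Cd3e.

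The log2 ratio of Foxp3 to the geometric mean of the 4 receptor complex genes (0.5 CPM added to each of the 4) put both variables on 1 scale. The added 0.5 CPM was above the means of the 4 genes in 1wk SBI + Lac (0.0656 to 0.253 CPM). It was also above the mean of Cd3d in every group (at most 0.408 CPM). The ratio thus follows Foxp3 more closely than it follows these genes. Since no gene lengths were used, the ratio is read only across groups. At 1 week it was -0.11, -0.26 and 1.20 in SBI and 1.84, 1.88 and 1.27 in SBI + Lac. At 3 weeks it was 1.18, 1.37 and -0.031 in SBI and 2.54, 1.78 and 2.76 in SBI + Lac. The groups did not overlap at either time. The difference in means was 1.39 at 1 week and 1.52 at 3 weeks, each with p = 0.10 by a two-sided exact permutation test, the smallest p that 3 against 3 libraries allow. Both stay at 0.10 after adjustment over the 2 comparisons. Against the summed CPM of the 4 genes, a reference chosen after seeing that single genes were at 0, the difference was 2.24 at 1 week (exact permutation p = 0.10) and 1.94 at 3 weeks (exact permutation p = 0.20), and the 3-week groups then overlapped.

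Muscle transcripts moved with Foxp3 from library to library. The summed CPM of the 9 skeletal muscle genes (Ckm, Acta1, Myh2, Myh4, Myh7, Ttn, Des, Mb and Tnnt3) was 110918 ± 27774 without and 156202 ± 14647 with lactation at 1 week, and 158304 ± 24484 without and 202407 ± 11394 with lactation at 3 weeks, the same order of groups as Foxp3 except for the middle groups, which lay close together. Pearson's r of Foxp3 with this sum was 0.93 over the 12 libraries, 0.93 within 1 week and 0.88 within 3 weeks. These values are a description chosen after seeing the data. The 12 points share 4 groups, and both measures are shares of the same library. Per 100000 CPM of these muscle genes, Foxp3 was at 0.911 ± 0.269 CPM without and 1.28 ± 0.267 with lactation at 1 week, and 1.20 ± 0.161 without and 2.09 ± 0.205 with lactation at 3 weeks. At 3 weeks the lowest lactating library, 1.86, lay above the highest non-lactating one, 1.36, while at 1 week the groups overlapped. With the summed receptor complex genes r was 0.0033 over the 12 libraries, -0.36 within 1 week and -0.49 within 3 weeks. With the sum of the 20 T cell genes measured it was -0.87, -0.92 and -0.85. Thy1 and Cd28 had the highest means in that sum at 1 week, at 20.5 and 15.6 CPM without and 11.2 and 7.22 CPM with lactation. At 3 weeks they were at 8.92 and 10.4 CPM without and 5.33 and 2.64 CPM with lactation. Cd6 had the highest mean of the list in 3wk SBI + Lac, at 7.83 CPM, against 7.90 CPM in 3wk SBI. The r with this sum thus weighs Thy1, Cd28 and Cd6 more than the rest of the list. The part of muscle content in the Foxp3 values was not tested. Mammary epithelial genes, 13 of them summed, were at 40.6, 11.8 and 0.769 CPM in 3wk SBI + Lac, against 1.63 to 3.75 CPM in 3wk SBI, 1.74 to 4.31 CPM in 1wk SBI + Lac and 1.08 to 2.33 CPM in 1wk SBI. The library with 0.769 CPM, replicate 3, had Foxp3 at 4.29 CPM, between the other libraries of its group.

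**Figure D2:**
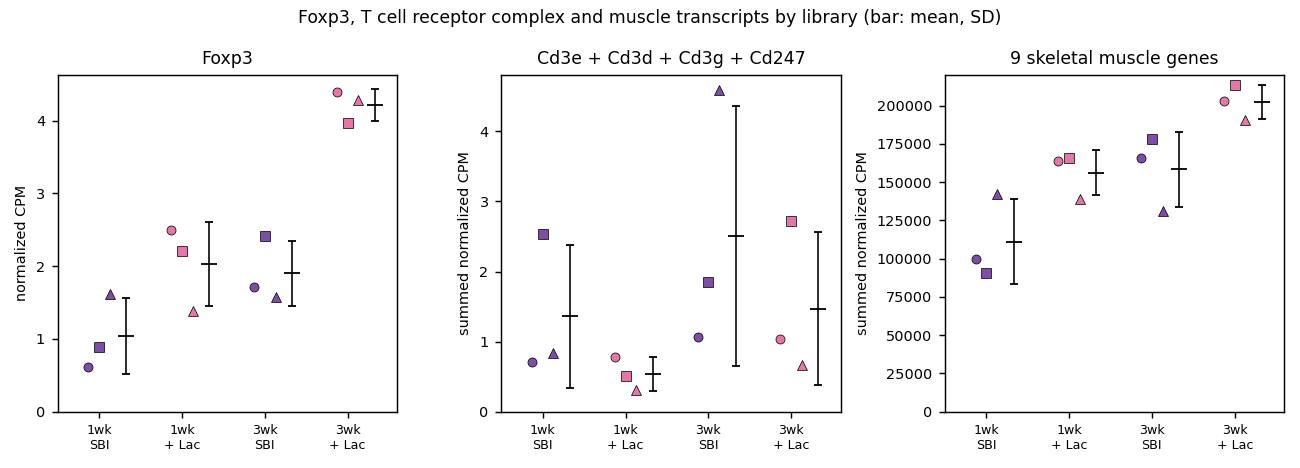
Per-library normalized CPM of Foxp3 (left), summed CPM of Cd3e, Cd3d, Cd3g and Cd247 (middle) and summed CPM of 9 skeletal muscle genes (right), on linear axes. Symbols are replicates 1 (circle), 2 (square) and 3 (triangle), and the bar is the mean with its SD over 3 libraries. Foxp3 and the muscle sum were both highest in all 3 libraries of 3wk SBI + Lac, while the highest receptor complex sum, 4.60 CPM, was in a library of 3wk SBI.

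Of the transcription factors that work with FOXP3, Ikzf2 (Helios, ENSRNOG00000027430) was at 2.90, 2.70 and 4.17 CPM in 1wk SBI and at 4.36, 4.58 and 4.80 CPM in 1wk SBI + Lac. At 3 weeks Ikzf2 was at 5.26, 4.83 and 4.72 CPM in SBI and at 5.93, 5.40 and 3.08 CPM in SBI + Lac. The 1-week groups did not overlap, and the 3-week groups did. The log2 fold change with lactation was 0.50 (SE 0.23) at 1 week and 0.018 (SE 0.23) at 3 weeks, and neither passed (edgeR adjusted p = 0.250 and 0.976). At 3 weeks the sign of this value hung on single libraries.

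Ikzf4 (Eos, ENSRNOG00000005535) was by far the most heavily counted of the 10 genes, with 960 to 7600 counts per library. It was at 122, 117 and 114 CPM in 1wk SBI and at 130, 132 and 137 CPM in 1wk SBI + Lac, without overlap. At 3 weeks Ikzf4 was at 103, 79.3 and 80.3 CPM in SBI and at 95.3, 111 and 109 CPM in SBI + Lac. With lactation the log2 fold change was 0.18 (SE 0.11, edgeR adjusted p = 0.403) at 1 week and 0.27 (SE 0.11, edgeR adjusted p = 0.190) at 3 weeks. Scaled to total counts alone, the 1-week value was -0.070. From 1 to 3 weeks it fell by 0.43 on the log2 scale in non-lactating rats (SE 0.11, edgeR adjusted p = 0.0391), which passes the cutoff on p and not that on size. In lactating rats the value was -0.34 (SE 0.11, edgeR adjusted p = 0.125). Foxp3 went the other way between the same groups, with 0.87 and 1.06. The summed T cell receptor complex genes lay between 0.311 and 4.60 CPM in these libraries, far below Ikzf4. Which cells of the muscle made the Ikzf4 transcript was not tested.

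Of the costimulatory receptors, Tnfrsf18 and Tnfrsf4 were near the edge of detection. Tnfrsf18 (GITR, ENSRNOG00000022012) was at 0.272, 0.337 and 0.211 CPM in 1wk SBI and at 0.197, 0.170 and 0.0717 CPM in 1wk SBI + Lac, the latter on 3 to 6 counts per library. At 3 weeks Tnfrsf18 was at 0, 0.495 and 0.648 CPM without lactation, where the 0 allows up to 0.322 CPM, and at 0.195, 0.309 and 0.110 CPM with it. The 1-week groups did not overlap, with the lactating group lower. The log2 fold change was -0.94 at both times (SE 0.75 and 0.73, edgeR adjusted p = 0.516 and 0.484).

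Tnfrsf4 (OX40, ENSRNOG00000020106) was at 0.112, 0.169 and 0.164 CPM in 1wk SBI and at 0.197, 0.305 and 0.143 CPM in 1wk SBI + Lac. At 3 weeks Tnfrsf4 was at 0.536, 0.433 and 0.276 CPM in SBI and at 0.260, 0.407 and 0.330 CPM in SBI + Lac, from 3 to 25 counts per library. Its groups overlapped at both times. The log2 fold change with lactation was 0.51 (SE 0.60, edgeR adjusted p = 0.677) at 1 week and -0.18 (SE 0.60, edgeR adjusted p = 0.895) at 3 weeks.

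Icos (ENSRNOG00000046196), whose product costimulates activated T cells, was at 0.849, 0.793 and 0.469 CPM in 1wk SBI and at 0.656, 0.339 and 0.430 CPM in 1wk SBI + Lac. At 3 weeks Icos was at 0.107, 0.248 and 1.56 CPM without lactation and at 0.130, 0.260 and 0.330 CPM with it. A single library, 3wk SBI replicate 3, held 130 counts, while the others of its group held 1 and 4. With lactation the log2 fold change was -0.57 (SE 0.65, edgeR adjusted p = 0.669) at 1 week and -1.77 (SE 0.74, edgeR adjusted p = 0.188) at 3 weeks. Without 3wk SBI replicate 3 the latter was 0.24. The same library held the highest levels of Cd3e, Cd8a and Il2ra, at 1.74, 1.87 and 1.16 CPM, yet the lowest Foxp3 of its group. In the same library 12 B cell and lymph node genes summed to 27.5 CPM, against 10.6 and 4.95 CPM in replicates 1 and 2 of its group. Of that sum 21.6 CPM was Cxcl13 alone, a chemokine that draws B cells, named here after its values were seen. Cxcl13 was at 1.29 and 1.80 CPM in the others of the group. Without Cxcl13 the sum was lower in replicate 3 than in replicate 1, but single genes of the rest went both ways. Ccl21 was at 8.37 CPM in replicate 1 and at 2.00 CPM in replicate 3. Cd79a, a B cell gene, was at 1.44 CPM in replicate 3, against 0.107 and 0.310 CPM in replicates 1 and 2. These 2 genes were also named after their values were seen. The part of these genes in the Icos value was not tested.

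Ctla4 (ENSRNOG00000054129), an inhibitory receptor that FOXP3 is known to sustain, had counts in 3 of 12 libraries: 3 in 1wk SBI + Lac replicate 2, 8 in 3wk SBI replicate 3 and 3 in 3wk SBI + Lac replicate 2. The 9 other libraries held 0, which allows up to between 0.048 and 0.330 CPM. The 2 libraries of 3wk SBI + Lac with 0 counts of Ctla4 held 135 and 39 counts of Foxp3. No comparison of Ctla4 could be made at this depth.

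Of the effector genes, Entpd1 (CD39, ENSRNOG00000014574) was at 32.4, 30.9 and 26.2 CPM in 1wk SBI and at 24.0, 18.0 and 27.6 CPM in 1wk SBI + Lac. At 3 weeks it was at 17.4, 18.3 and 28.4 CPM in SBI and at 17.5, 16.1 and 17.4 CPM in SBI + Lac. Its lactating and non-lactating groups overlapped at both times, with the lower mean in the lactating group. The log2 fold change with lactation was -0.36 (SE 0.18) at 1 week and -0.37 (SE 0.19) at 3 weeks, and neither passed (edgeR adjusted p = 0.290 and 0.280).

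Lrrc32 (GARP, ENSRNOG00000015310) was at 27.6, 22.2 and 21.0 CPM in 1wk SBI and at 17.3, 17.2 and 24.0 CPM in 1wk SBI + Lac. At 3 weeks it was at 15.6, 15.2 and 20.5 CPM in SBI and at 18.0, 17.8 and 17.9 CPM in SBI + Lac. Its groups overlapped at both times, with log2 fold changes of -0.27 (SE 0.15, edgeR adjusted p = 0.341) and 0.046 (SE 0.16, edgeR adjusted p = 0.900). The summed CPM of 9 endothelial genes ranged from 380 to 405 without and 368 to 394 with lactation at 1 week, and from 316 to 421 without and 303 to 367 with lactation at 3 weeks. The summed CPM of 12 macrophage genes ranged from 596 to 659, 389 to 548, 446 to 984 and 412 to 666 with the groups in that order. The part of these cells in the Entpd1 and Lrrc32 values was not tested.

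Areg (ENSRNOG00000002754), the growth factor by which regulatory T cells are known to act on muscle progenitors, had 8 counts in all. At 1 week it had 1, 0 and 1 counts without lactation and 0 in all 3 libraries with it, and at 3 weeks it had 0, 1 and 1 counts without and 0, 2 and 2 with lactation. All of these are at or below 3 counts, so no level and no fold is given.

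Counted over the 8 genes tested, 0 passed both cutoffs (an edgeR adjusted p under 0.05 together with a log2 fold change beyond 1 in either direction) for lactation at 1 week, where 0.164% of all genes tested were called lower and 0.089% higher, and 0 at 3 weeks, where 0.534% were called lower and 0.205% higher. At an unadjusted p under 0.05 there were 2 of 8 at 1 week, Foxp3 and Ikzf2, both higher, beside 18.9% of all genes. At 3 weeks there were 3 of 8, Foxp3 and Ikzf4 higher and Icos lower, beside 21.1% of all genes. DESeq2 called 0 of the genes at 1 week, beside 1.31% of all genes on all libraries and 2.23% on those compared, and only Foxp3 at 3 weeks, beside 1.76% and 1.37%. The groups did not overlap for 3 of 8 at 1 week (Ikzf2, Ikzf4 and Tnfrsf18, the last lower), beside 28.4% of all genes, and for Foxp3 alone at 3 weeks, beside 22.3%. With 8 genes, these counts are near the shares over the whole table. For the difference between the effects at the 2 times, 0 of 8 passed both cutoffs (0.00685% of all genes) and 0 of 8 had an unadjusted p under 0.05 (4.42%).

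Between 1 and 3 weeks, 0 of 8 passed both cutoffs in edgeR in non-lactating rats (1.46% of all genes) and 0 of 8 in lactating rats (0.774%). On the adjusted p alone 1 passed without lactation, Ikzf4 (5.05% of all genes), and 0 with it (2.01%). Unadjusted, 6 of 8 had p under 0.05 without lactation, 3 in each direction, beside 21.2% of all genes, and 3 of 8 with lactation, Foxp3 higher and Ikzf4 and Entpd1 lower, beside 18.1%. Besides Foxp3 and Ikzf4, the 6 were Ikzf2 (0.60) and Tnfrsf4 (1.36) on the higher side and Entpd1 (-0.45) and Lrrc32 (-0.45) on the lower side, as log2 fold changes with edgeR adjusted p between 0.111 and 0.205. All of these time comparisons carry the difference in counting between the time points.

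**Figure D3:**
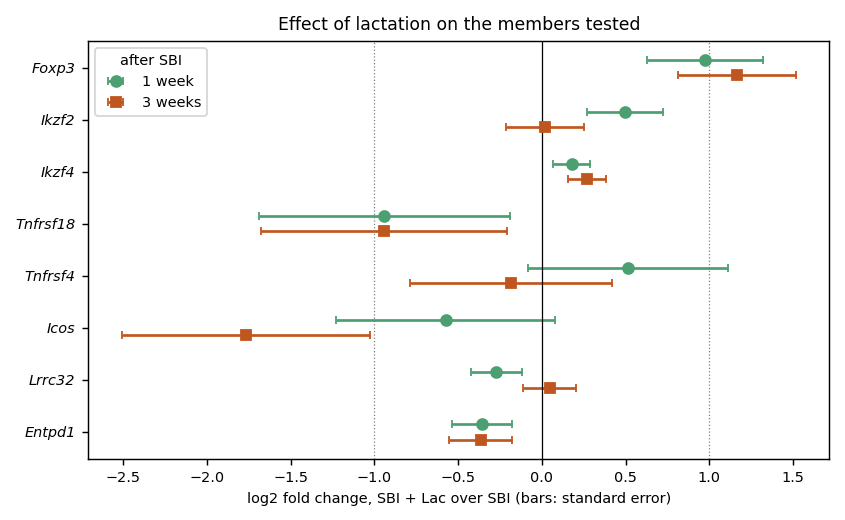
Log2 fold change of SBI + Lac over SBI (horizontal axis, with 1 and -1 dotted) for the 8 genes tested, at 1 week (green circles) and 3 weeks (orange squares), with standard errors from 3 against 3 libraries. Foxp3 lay at 0.97 and 1.16, and the other 7 genes scattered on both sides of 0, with Tnfrsf18 at -0.94 at both times and Icos at -1.77 at 3 weeks.

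Whether the other genes moved with Foxp3 was asked over the 12 libraries, by Pearson's r and Spearman's rho of log2(CPM + 0.5), with permutation p-values adjusted over all 14598 other genes tested. Of the 7 genes, 0 had a positive r past an adjusted p of 0.05, beside 14.1% of all genes, and 2 had a negative one, Entpd1 and Lrrc32, beside 14.5%. For Entpd1, r was -0.84 (permutation p = 0.00054, adjusted p = 0.00599) and rho was -0.85 (permutation p = 0.00087, adjusted p = 0.0111). Without the 2 libraries farthest from the Foxp3 median, replicates 1 and 3 of 3wk SBI + Lac, r was -0.82. Within a time point, 6 libraries each, r was -0.84 at 1 week (exact permutation p = 0.0278, adjusted p = 0.172) and -0.65 at 3 weeks (exact permutation p = 0.0472, adjusted p = 0.309), so the sign was the same in both and neither passed after adjustment.

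For Lrrc32, r was -0.70 (permutation p = 0.0127, adjusted p = 0.0461) and rho was -0.62 (permutation p = 0.0376, adjusted p = 0.104). With a pseudocount of 2 in place of 0.5 the call was lost (r = -0.65, permutation adjusted p = 0.0683). Without the same 2 libraries r was -0.77. At 1 week r was -0.92 (exact permutation p = 0.0181, adjusted p = 0.155), and at 3 weeks it was 0.071 (exact permutation p = 0.869, adjusted p = 0.949), so the relation was not seen within 3 weeks.

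The genes with the highest r were Tnfrsf4, with r = 0.54 and rho = 0.58 (permutation p = 0.0730 and 0.0525, adjusted p = 0.157 and 0.130), and Ikzf2, with r = 0.52 and rho = 0.52 (permutation p = 0.0872 and 0.0850, adjusted p = 0.179 and 0.181). Both had a positive r at 1 week, 0.73 and 0.82 (exact permutation p = 0.0847 and 0.0708), and a negative one at 3 weeks, -0.36 and -0.16 (exact permutation p = 0.472 and 0.869). Without the 2 farthest libraries r was 0.63 and 0.80. For Icos r was -0.58 and rho -0.66 (permutation p = 0.0475 and 0.0223, adjusted p = 0.115 and 0.0732), with -0.67 at 1 week, -0.48 at 3 weeks and -0.49 without the 2 libraries. For Ikzf4 r was -0.24 and rho -0.37 (permutation p = 0.452 and 0.237, adjusted p = 0.591 and 0.373), yet it was 0.43 and 0.57 within 1 and 3 weeks and -0.17 without the 2 libraries. For Tnfrsf18 r was -0.13 and rho -0.22 (permutation p = 0.695 and 0.498, adjusted p = 0.791 and 0.631), with -0.50 and -0.26 within 1 and 3 weeks and 0.037 without the 2 libraries. The permutation treats the 12 libraries as exchangeable, while they fall into 4 groups that differ in Foxp3.

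**Figure D4:**
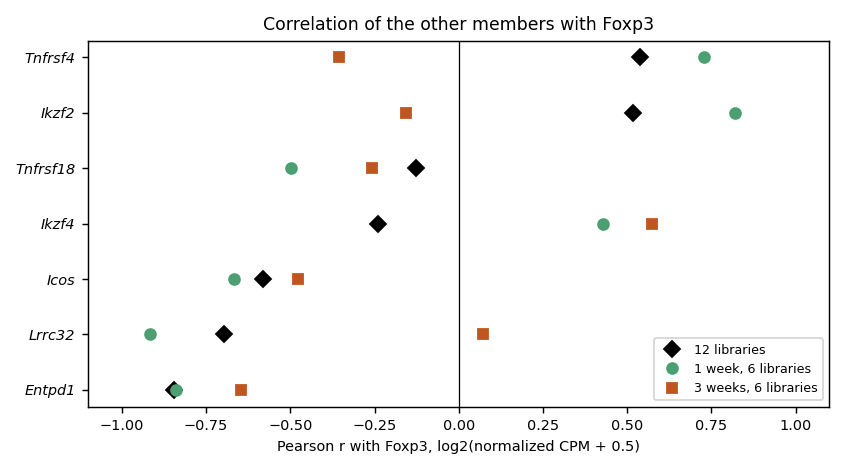
Pearson's r (horizontal axis) of log2(normalized CPM + 0.5) of 7 genes with that of Foxp3, over all 12 libraries (black diamonds), the 6 libraries of 1 week (green circles) and the 6 of 3 weeks (orange squares). Entpd1 lay below -0.64 in all 3 sets, while Tnfrsf4 and Ikzf2 were positive at 1 week and negative at 3 weeks.

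The 5 genes whose levels were most like those of Foxp3 over the 12 libraries, as a description, were Prxl2c (r = 0.980), Atl2 (0.979), Sar1b (0.978), Fkbp4 (0.976) and Phf20l1 (0.975). Atl2 and Sar1b encode GTPases that act at the endoplasmic reticulum, and Fkbp4 a cochaperone of steroid receptors. Sar1b was at 133 ± 41.8 CPM without and 219 ± 40.9 with lactation at 1 week, and at 240 ± 59.1 without and 398 ± 22.7 with lactation at 3 weeks. None of the 5 stood on the lists of T cell or regulatory T cell genes. Tnfrsf4, which had the highest r of the 7 other genes tested, ranked 3210 of 14598, and Entpd1 ranked 14004.

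Genes known to feed into FOXP3 were followed as a list of 32, of which 29 were tested. With lactation 13 of the 29 lay higher and 16 lower at 1 week, and 14 higher and 15 lower at 3 weeks, with medians of -0.050 and -0.0046 on the log2 scale beside -0.0038 and -0.019 over all genes. At each time 2 of the 29 were called, both higher (0.089% and 0.205% of all genes at 1 and 3 weeks): Nfil3, a transcription factor known to repress Foxp3, and Il15, a cytokine that shares receptor chains with interleukin 2. Nfil3 rose from 11.6 ± 0.864 to 23.6 ± 2.03 CPM at 1 week (log2 fold change 1.02, SE 0.14, edgeR adjusted p = 0.00998) and from 10.7 ± 2.01 to 27.7 ± 3.75 CPM at 3 weeks (log2 fold change 1.42, SE 0.15, edgeR adjusted p = 0.00143). Il15 rose from 7.64 ± 2.79 to 16.3 ± 2.71 CPM at 1 week (edgeR adjusted p = 0.0407) and from 13.4 ± 1.35 to 26.8 ± 2.91 CPM at 3 weeks (edgeR adjusted p = 0.0289). In neither gene did the lactating and non-lactating groups of a time point overlap. Il2ra, the interleukin 2 receptor chain CD25 that regulatory T cells carry at high levels, was at 0.383 ± 0.286 against 0.145 ± 0.103 CPM with lactation at 1 week (edgeR adjusted p = 0.318) and at 0.655 ± 0.442 against 0.183 ± 0.0678 CPM at 3 weeks (edgeR adjusted p = 0.177).

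A wider list of 32 genes that regulatory T cells use or share with activated T cells had 23 tested. With lactation 17 of the 23 lay lower at 1 week and 18 at 3 weeks, with medians of -0.46 and -0.48 on the log2 scale, beside 50.5% and 52.3% of all genes on the lower side with medians of -0.0038 and -0.019, while 0 of 23 passed both cutoffs in edgeR at either time. At an unadjusted p under 0.05 there were 4 lower and 1 higher at 1 week, and 5 lower and 1 higher at 3 weeks, beside 18.9% and 21.1% of all genes in either direction. Among those with the smallest p were Cd83 (-1.02 at 1 week, edgeR adjusted p = 0.0886), Rora (0.58 at 1 week, edgeR adjusted p = 0.106) and Nrp1 (-0.32 at 3 weeks, edgeR adjusted p = 0.132). Of these 3, Rora was on the same side as Foxp3.

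Genes for ligands and partners of the receptors and enzymes were listed under 12 symbols, of which 9 were tested. Of these 5 lay lower with lactation at 1 week and 7 at 3 weeks, beside 50.5% and 52.3% of all genes. At an unadjusted edgeR p under 0.05 there were 2 lower and 1 higher at 1 week, beside 18.9% of all genes in either direction. At 3 weeks there were 5 lower and 0 higher, beside 21.1%. By edgeR 0 were called at 1 week, and 1 was called lower at 3 weeks (0.534% of all genes). That gene was Cd28, the receptor that competes with CTLA4 for CD80 and CD86, at 10.4 ± 3.30 CPM without and 2.64 ± 0.571 CPM with lactation at 3 weeks (log2 fold change -1.99, SE 0.38, edgeR adjusted p = 0.0219). Tnfsf18, the ligand of GITR, was at a log2 fold change of 0.28 at 1 week and -1.75 at 3 weeks (edgeR adjusted p = 0.803 and 0.110). On the list of T cell genes, to which Cd28 also belongs, 18 of 19 lay lower at 1 week and 19 of 19 at 3 weeks (medians -0.87 and -0.81), beside 50.5% and 52.3% of all genes. At 1 week 0 were called (edgeR, 4 lower at an unadjusted p under 0.05, beside 18.9% of all genes in either direction). At 3 weeks 2 were called lower, Cd28 and Cd8b, beside 0.534% of all genes. In the summed T cell list Thy1 and Cd28 weighed most at 1 week. The sum ranged from 42.3 to 64.8 CPM without and 28.6 to 33.8 with lactation at 1 week, and from 25.8 to 64.3 without and 20.3 to 27.9 with lactation at 3 weeks. The log2 ratio of Foxp3 to the geometric mean of this list without Cd28 was also compared, with 0.5 CPM added to each listed gene. Lactating minus non-lactating, it differed by 1.43 at 1 week and 1.59 at 3 weeks, without overlap. Each had p = 0.10 by the exact permutation test, the smallest that 3 against 3 libraries allow.

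In the RefSeq annotation of GRCr8, the span of Foxp3 overlaps those of Ppp1r3f and Ccdc22, both on the opposite strand. The libraries were stranded, and whether the counting used strand is not given in the sources used here. Ppp1r3f was at 3.67 ± 0.167, 4.80 ± 0.726, 4.42 ± 0.637 and 5.53 ± 0.988 CPM, taking non-lactating before lactating at 1 week and then likewise at 3 weeks, and its r with Foxp3 was 0.70. Ccdc22 was at 7.25 ± 0.433, 8.26 ± 0.834, 7.36 ± 1.77 and 7.59 ± 1.05 CPM, with r = 0.13. With lactation their log2 fold changes were 0.39 and 0.19 at 1 week and 0.36 and 0.040 at 3 weeks, each smaller than that of Foxp3 at the same time, and none passed (edgeR adjusted p between 0.274 and 0.927).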

How the data were processed

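Pubocaudalis RNA was sequenced in 12 libraries, 3 per group, each a pool of 2 rats by the labels. The authors deposited 1 table of gene counts. Its 1-week columns hold whole counts, and the 3-week columns the authors deposited hold expected counts with decimals (26.6% to 44.0% of values), rounded here for the tests. Salmon is named in the submitters' processing notes, without a version, and build and annotation are not given in the sources used here. Total counts ran from 10082734 to 75634391, so genes under a few counts are uncertain. P-values measure the spread between pools.

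Counts were tested with edgeR 4.0.16 in R 4.3.3 (TMM, filterByExpr, robust quasi-likelihood fit of all 12 libraries, Benjamini-Hochberg over 14599 genes, calls at an adjusted p under 0.05 with a log2 fold change beyond 1 either way) for 5 comparisons. Standard errors came from the F statistic. DESeq2 1.42.0 was an alternative. For the receptor complex ratio 0.5 CPM was added to each reference gene in every library, as some counts were 0. Correlation p-values (100000 permutations, or all within a time point) were adjusted over all genes tested. Both depart from the plan. Single genes named are the 10 members, the 5 most like Foxp3, up to 4 per list with the smallest lactation p, and Cd3e, Cd8a, Nfil3 and Il2ra. The 2 genes overlapping Foxp3 were added after the data were seen. The members and lists were chosen with earlier results of these data known. Cd4, Il2rg, Jak3 and Trac, all on the lists, are not analysed here. Icosl, also listed, is another symbol of Icoslg, the ICOS ligand, which was analysed under that symbol. A gene that the naming rule picked is not reported here. The tests were tested on simulated data. Alternatives were other normalizations, filters, cutoffs, fits, a replicate block and each library left out.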

Additional observations from a re-analysis of the deposited data

How the results depend on the processing

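The number of the 8 genes called was 0 in every comparison and became 1 under these alternatives. It was 1 for lactation at 1 week and for 3 weeks against 1 week without lactation when 1wk SBI replicate 3 was left out (0 to 1 over all libraries left out), for lactation at 3 weeks with DESeq2 on all or on the compared libraries and at an adjusted p under 0.1 with no cutoff on size, for 3 weeks against 1 week with lactation with DESeq2 on either set and with edgeR on the compared libraries, and for 3 weeks against 1 week without lactation at an adjusted p under 0.05 or 0.1 with no cutoff on size. In each but the last the gene was Foxp3, and in the last it was Ikzf4. Calls over all genes rose as well. Without 1wk SBI replicate 3, 171 genes were called lower and 64 higher for lactation at 1 week, against 24 and 13 before. For time without lactation they were 264 and 133, against 160 and 53. For time with lactation DESeq2 called 212 and 36 on all libraries and 205 and 48 on those compared. There edgeR called 163 and 28 on those compared, against 100 and 13 on all. Foxp3 crossed the adjusted p of 0.05 for lactation at 3 weeks with DESeq2 (1.16, adjusted p = 0.0271 and 0.0181), and for 3 weeks against 1 week with lactation with DESeq2 (1.07, adjusted p = 0.0436 and 0.00572) and edgeR on the compared libraries (1.07, adjusted p = 0.0266). With each library left out in turn its log2 fold change ran from 0.69 to 1.42 for lactation at 1 week, from 1.00 to 1.38 at 3 weeks, from -0.26 to 0.47 for the difference between them, from 0.59 to 1.32 for time without lactation and from 0.84 to 1.25 with it. In these fits the edgeR adjusted p ran from 0.0268 to 0.492 for lactation at 1 week and from 0.0779 to 0.281 at 3 weeks. For time it ran from 0.0282 to 0.523 without lactation and from 0.151 to 0.395 with it. The receptor complex ratio ran from 1.12 to 1.85 at 1 week and from 1.09 to 1.81 at 3 weeks. The correlation of Lrrc32 with Foxp3 no longer passed with a pseudocount of 2 (r = -0.65, adjusted p = 0.0683). The causes were not tested. Under the replicate block Foxp3 was at 0.99 and 1.17 for lactation at 1 and 3 weeks (edgeR adjusted p = 0.220 and 0.140). The block did not change the number of the 8 genes called. Over all genes, calls for lactation at 1 week fell from 24 lower and 13 higher to 3 and 5. At 3 weeks they fell from 78 and 30 to 39 and 25. Deviations of same-numbered libraries correlated at -0.11, -0.21 and -0.22 at 1 week and -0.073, -0.098 and -0.25 at 3 weeks, so the numbers do not pair the samples.

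Other signs that turned were of values that were not called. For lactation at 3 weeks, Ikzf2 was at -0.0033 (upper quartile), -0.17 (total counts) and -0.0040 (compared libraries only) and from -0.14 to 0.22 with a library left out, Lrrc32 at -0.15 (total counts) and from -0.032 to 0.22, and Icos from -2.11 to 0.24. For lactation at 1 week Ikzf4 was at -0.070 (total counts). Without lactation, Icos over time was at -0.075 (total counts) and -0.21 (replicate block), and from -1.87 (without 3wk SBI replicate 3) to 0.49. With lactation, Ikzf2 over time was at -0.077 (total counts) and from -0.038 to 0.32, and Lrrc32 from -0.21 to 0.050. The planned ratio to Cd4 alone could not be run. Genes under about 3 counts per library, Ctla4 and Areg among them, are beyond what this depth can compare.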
